A study of Mus musculus with 11 samples.

Results

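Mx1+Nes+ bone marrow skeletal stem cells (BM-SSCs) were compared with CD45+ hematopoietic lineage cells of the marrow on 4 of the series' 11 microarrays, 2 titled Mx1+Nes+ BM SSCs and 2 titled CD45+ cells from bone marrow, and all 45037 mouse probe sets on these arrays entered the comparison. The series holds 6 sorted mouse populations, in which periosteal and marrow stem cells were set against blood cells, osteoprogenitors and other marrow stroma. BM-SSCs were sorted without culture from Mx1-Cre; Rosa-Tomato; Nestin-GFP mice as cells negative for CD45, CD31 and Ter119 and positive for CD105, CD140a, Tomato (Mx1+) and GFP (Nes+). These mice had been lethally irradiated and transplanted with wild-type C57BL/6 marrow, and pIpC was injected weeks later to switch on Mx1-Cre. Donor blood cells in such chimeras carry no reporter, while any remaining host blood cells can. The CD45+ cells came from bone marrow, and neither the labels nor the methods say whether from these chimeras. Mx1-Cre is driven by an interferon-inducible promoter that is active in blood cells as well as stroma, and Nestin-GFP is a transgene, so both sort on a reporter and not on the cells' own Mx1 or Nes transcript. The cells of several mice of both sexes were pooled for RNA. The methods call the arrays biological repeats without saying whether different mice were used, so p-values reflect only how far these samples vary, which may be in part technical.

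Skeletal stem cells of the marrow are rare stromal cells around blood vessels that can form bone, cartilage and the fat cells of the marrow. They are also known as the niche of blood-forming cells, because they secrete the chemokine CXCL12 and present stem cell factor on their membrane, whose receptors CXCR4 and KIT sit on hematopoietic cells. Blood cells are defined by CD45, a tyrosine phosphatase encoded by Ptprc, and in the marrow they are mostly granulocytes, monocytes, B cell precursors and dividing progenitors.

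The values are log2 RMA signals as deposited, in which 1 unit is a 2-fold difference, and differences are BM-SSCs minus CD45+ cells. Passing means an adjusted p under 0.05 in limma, in 1 model over all 11 arrays, and a gene is represented by its probe set with the highest mean. Of the 45037 probe sets 3801 passed (8.44%), 980 higher and 2821 lower in BM-SSCs. With each array centred on its median the split was 641 higher and 3631 lower. Of 18193 genes, 534 were higher (2.94%) and 1459 lower (8.02%), and in all 1993 of these both BM-SSC arrays lay on the same side of both CD45+ arrays. Genes selected by their adjusted p tend to separate in this way, and the share over all genes was not counted. The separation is therefore no further support for the calls. The median difference over all genes was 0.08.

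BM-SSC array 2 had a compressed signal. Its interquartile range was 1.98 log2 units, against 3.15 on BM-SSC array 1 and 3.47 and 3.56 on the CD45+ arrays, and 462 probe sets read above 10 on it, against 1282 on BM-SSC array 1 and 1449 and 1477 on the CD45+ arrays. Across probe sets the BM-SSC arrays correlated at 0.771 and the CD45+ arrays at 0.995 (Pearson, over probe sets, which are not independent replicates). The mouse beta-actin control read 1.26 and 2.18 units higher at its 3' than at its 5' probe set on the BM-SSC arrays, against 0.66 and 0.63 on the CD45+ arrays. The part of these array differences in the results was not tested. Genes described below are therefore given on each array, and an adjusted p is followed by its value with BM-SSC array 1 alone. With BM-SSC array 1 alone against the CD45+ arrays, 557 genes were higher (3.06%) and 969 lower (5.33%), of which 329 and 929 were also called with both arrays. Among the genes called higher, 72.1% had the smaller difference on array 2, with a median difference of 2.70 on array 1 and 2.21 on array 2. The genes called lower had medians of -2.47 on array 1 and -2.90 on array 2.

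**Figure D1:**
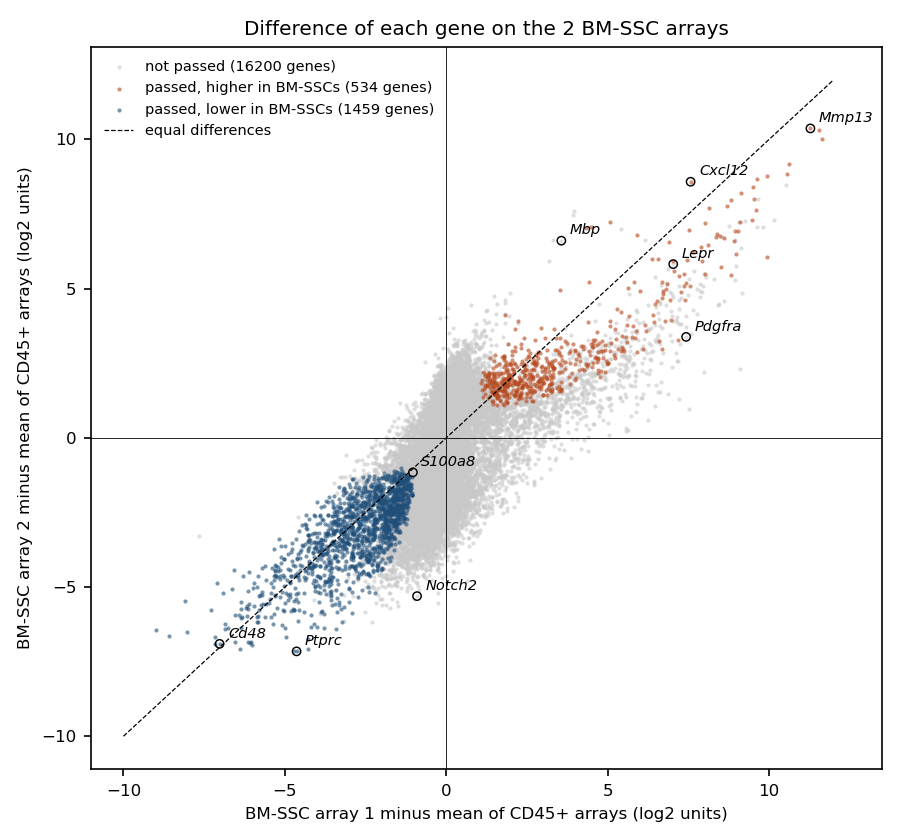
Difference of each of 18193 genes from the mean of the CD45+ arrays, on BM-SSC array 1 (horizontal axis, log2 units) and on BM-SSC array 2 (vertical axis, log2 units), with the genes that passed in colour and the line of equal differences dashed. Of the 534 genes called higher 72.1% lie below the dashed line, and of the 1459 called lower 34.8% have the smaller difference on array 2. Pdgfra, at 7.43 on array 1 and 3.38 on array 2, did not pass.

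The spread behind each test was estimated over all populations, and the P-SSC arrays (periosteal stem cells) contributed a large part of it. Arrays of a population differed with a root mean square SD of 0.998 in BM-SSCs, 0.168 in CD45+ cells and 1.33 in P-SSCs. Mmp13, for example, read 11.86 and 3.75 on the P-SSC arrays, and its standard error (SE) in the present comparison was 2.11. Without the P-SSC arrays 8683 probe sets passed, 2869 higher and 5814 lower. Leaving out BM-SSC array 1 gave 8921 passing probe sets, leaving out BM-SSC array 2 gave 2875, leaving out CD45+ array 1 gave 479 and leaving out CD45+ array 2 gave 464. Over all probe sets, most calls of either direction, higher and lower, did not hold when either CD45+ array was left out. Most calls of higher below did not hold then either. Counts of a gene list are followed by its leave-out counts, which are the counts without BM-SSC array 1, BM-SSC array 2, CD45+ array 1, CD45+ array 2, both P-SSC arrays, and array 2 of both BM-SSCs and P-SSCs, in that order. The background of each list count with all arrays is 2.94% of all genes higher and 8.02% lower, which is not the background of its leave-out counts. Each leave-out count covers 1 direction, and members that passed in the other direction are left out of it. Without the P-SSC arrays, for example, 1 Schwann cell and neural gene was lower and 1 interferon response gene higher. Calls over all probe sets differ between these settings too, as given above and in the closing sections. A shift in a leave-out count is therefore not by itself a result about the list. Among the list members named below, those that did not pass, and Alpl, Omd, Cd53, Coro1a, Adgre1 and Cdk1, were chosen after their values were seen.

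The sorting markers were read first, as a check of the labels. Ptprc, which encodes CD45, had 7.42 and 4.90 on the BM-SSC arrays, against 12.06 and 12.05 on the CD45+ arrays, and was lower by both arrays (difference -5.90, SE 1.00, adjusted p = 0.0137, and 0.0497 on array 1 alone). In such bulk RNA, fewer cells of a type and less RNA per cell cannot be told apart. Pdgfra, which encodes CD140a, had 10.95 and 6.90 in BM-SSCs and 3.62 and 3.42 in CD45+ cells. Its arrays did not overlap, but those of the BM-SSCs lay 4.05 units apart, and the difference of 5.41 did not pass (SE 2.06, adjusted p = 0.157, and 0.145 on array 1 alone and 0.0208 without the P-SSC arrays). Eng, which encodes CD105, had 7.63 and 7.57 in BM-SSCs and 6.27 and 5.97 in CD45+ cells and passed as higher (adjusted p = 0.0445, and 0.0938 on array 1 alone). Pecam1, which encodes the excluded CD31, had 5.09 and 5.97 in BM-SSCs and 6.64 and 6.75 in CD45+ cells and did not pass. The transcripts behind the reporters need not follow them. Nes had 6.17 and 7.08 in BM-SSCs and 5.26 and 5.34 in CD45+ cells (difference 1.33, SE 0.44, adjusted p = 0.109, and 0.389 on array 1 alone). Mx1, an antiviral GTPase induced by interferon, had 4.92 and 4.28 in BM-SSCs and 7.03 and 6.72 in CD45+ cells and was lower (difference -2.27, SE 0.53, adjusted p = 0.0413, and 0.15 on array 1 alone).

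Of the genes that passed as higher, the 12 with the widest gap between the populations were Mmp13, Col3a1, Fmod, Ccn2, Dmp1, Ibsp, Dcn, Mgp, Bgn, Igfbp5, Sparc and Col1a1. Col3a1, a fibrillar collagen chain, had 14.15 and 12.93 in BM-SSCs and 2.51 and 2.71 in CD45+ cells (difference 10.92, SE 2.22, adjusted p = 0.0259, and 0.0786 on array 1 alone). Fmod, a small proteoglycan that binds collagen fibrils, had 14.07 and 12.43 in BM-SSCs and 2.37 and 2.48 in CD45+ cells (difference 10.83, SE 2.54, adjusted p = 0.0415, and 0.109 on array 1 alone). Ccn2, a matricellular protein also called connective tissue growth factor, had 13.62 and 12.17 in BM-SSCs and 3.07 and 2.91 in CD45+ cells (difference 9.91, SE 2.19, adjusted p = 0.0344, and 0.0933 on array 1 alone). On all 3 genes the lower of the BM-SSC arrays lay more than 9 units above the higher CD45+ array. Over the 12, the lower BM-SSC array lay between 7.73 and 10.25 units above the higher CD45+ array. Sparc, a collagen-binding protein of bone also called osteonectin, had 14.08 and 13.25 in BM-SSCs and 5.39 and 5.13 in CD45+ cells. Mgp, an inhibitor of calcification, had 12.89 and 11.80 in BM-SSCs and 3.24 and 3.54 in CD45+ cells. Of these 12, Dmp1 also passed with array 1 alone (adjusted p = 0.016), and for the other 11 that p lay between 0.0632 and 0.126. Without the P-SSC arrays all 12 passed, at adjusted p of at most 3.60e-04, and without either CD45+ array none did.

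Of the genes that passed as lower, the 12 with the widest gap were Cd48, Fcmr, Ear3, Ctss, Igha, Fcer1a, P2ry10, H2-Ob, Prg2, Iglv1, Ccr2 and Ighv14-2. Prg2, the major basic protein of eosinophil granules, had 3.63 and 6.18 in BM-SSCs and 12.43 and 12.80 in CD45+ cells (difference -7.71, SE 0.75, adjusted p = 0.00184, and 0.00338 on array 1 alone). Igha, the constant region of immunoglobulin A, had 4.28 and 6.22 in BM-SSCs and 13.07 and 12.67 in CD45+ cells, and Iglv1, a light chain variable segment, had 3.89 and 5.44 in BM-SSCs and 12.28 and 11.59 in CD45+ cells. Probe sets of immunoglobulin segments can share sequence with related segments, so the segment itself is uncertain. Fcmr, the receptor for the Fc part of immunoglobulin M, had 3.23 and 3.48 in BM-SSCs and 10.28 and 10.48 in CD45+ cells (difference -7.03, SE 0.39, adjusted p = 6.82e-04, and 0.00338 on array 1 alone). Fcer1a, the alpha chain of the high-affinity immunoglobulin E receptor of basophils and mast cells, had 2.70 and 3.15 in BM-SSCs and 9.51 and 9.60 in CD45+ cells (difference -6.63, SE 0.31, adjusted p = 6.82e-04, and 0.00338 on array 1 alone). On Prg2, Igha and Iglv1 the BM-SSC arrays lay 1.55 to 2.56 units apart, with array 2 the higher, and on Fcmr and Fcer1a within 0.45 units. Ear3, a ribonuclease of the eosinophil family, had 2.61 and 3.10 in BM-SSCs and 9.79 and 9.78 in CD45+ cells. Ctss, the lysosomal protease cathepsin S, had 6.40 and 6.10 in BM-SSCs and 12.98 and 12.87 in CD45+ cells. H2-Ob, a chain of the class II modulator H2-O, had 3.09 and 3.10 in BM-SSCs and 9.48 and 9.44 in CD45+ cells. On these 3 genes the BM-SSC arrays lay within 1 unit of each other. Cd48, a surface glycoprotein of leukocytes, had 3.19 and 3.31 in BM-SSCs and 10.25 and 10.18 in CD45+ cells. P2ry10, a receptor of lysophospholipids on lymphocytes, had 2.97 and 2.28 in BM-SSCs and 9.32 and 9.41 in CD45+ cells, and Ighv14-2, a heavy chain variable segment, had 3.25 and 3.86 in BM-SSCs and 9.99 and 10.22 in CD45+ cells. On each of these 6 genes the populations were over 6 units apart. All 12 also passed with array 1 alone, at adjusted p of at most 0.015.

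**Figure D2:**
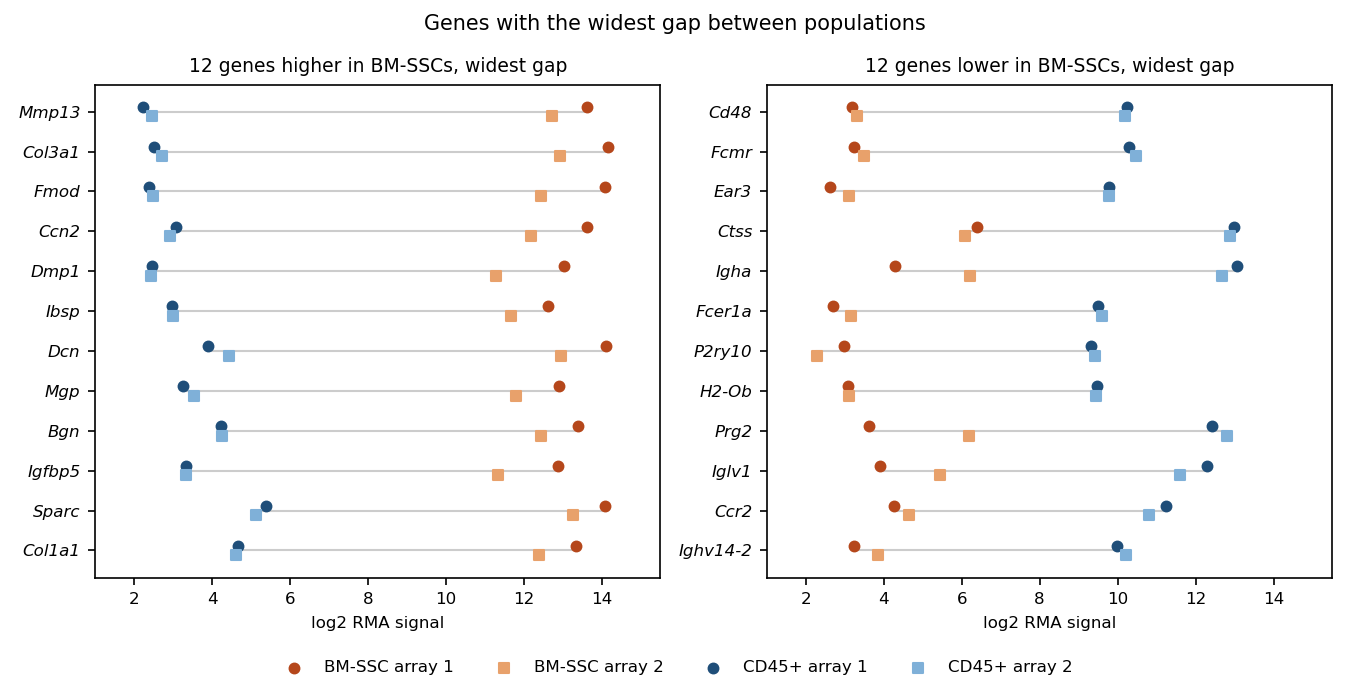
Log2 RMA signal (horizontal axes) on the 2 BM-SSC arrays (orange) and the 2 CD45+ arrays (blue), circles for array 1 and squares for array 2, for the 12 genes per direction with the widest gap between the populations among those that passed. On the left the BM-SSC arrays sit above 11 and the CD45+ arrays below 6, and on the right the BM-SSC arrays sit below 7 and the CD45+ arrays above 9.

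The secreted and membrane-bound factors of the blood cell niche were higher in BM-SSCs in part. Of 18 measured, against a background of 2.94% of all genes, 5 were higher and 1 lower (leave-out counts of higher members 1, 1, 0, 0, 12 and 15), and the median difference was 2.98. Cxcl12 had 11.21 and 12.23 in BM-SSCs and 3.48 and 3.80 in CD45+ cells. It read higher on array 2 than on array 1, and its difference was 8.08 (SE 1.93, adjusted p = 0.0446, and 0.166 on array 1 alone and 2.88e-04 without the P-SSC arrays). Ptn, which encodes the heparin-binding growth factor pleiotrophin, had 10.87 and 9.38 in BM-SSCs and 2.70 and 3.27 in CD45+ cells, and was the higher member that passed with both arrays (difference 7.14, SE 1.21, adjusted p = 0.0138) and with array 1 alone (adjusted p = 0.0364). Cdh11, an adhesion molecule of mesenchymal cells, had 11.12 and 8.79 in BM-SSCs and 2.11 and 2.26 in CD45+ cells (adjusted p = 0.0269, and 0.0538 on array 1 alone). Gas6, the ligand of the receptors Tyro3, Axl and Mertk, had 11.62 and 10.22 in BM-SSCs and 4.12 and 3.85 in CD45+ cells (adjusted p = 0.0379, and 0.0906 on array 1 alone), and Esm1, a secreted proteoglycan, had 7.46 and 8.27 in BM-SSCs and 3.03 and 3.06 in CD45+ cells (adjusted p = 0.0485, and 0.182 on array 1 alone). Kitl, which encodes stem cell factor, had 8.92 and 7.30 in BM-SSCs and 3.32 and 3.32 in CD45+ cells. The arrays of Kitl did not overlap, and its difference of 4.79 did not pass (adjusted p = 0.116, and 0.207 on array 1 alone). Il15, a cytokine for NK and memory T cells, went the other way, with 4.32 and 4.57 in BM-SSCs and 6.10 and 6.57 in CD45+ cells (difference -1.90, SE 0.33, adjusted p = 0.0156, and 0.0301 on array 1 alone).

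Genes in use as markers of marrow stroma or of vessels were read too. Lepr, the leptin receptor, had 9.24 and 8.03 in BM-SSCs and 2.41 and 2.01 in CD45+ cells, a difference of 6.43 that did not pass (adjusted p = 0.0816, and 0.186 on array 1 alone) unless the P-SSC arrays were left out (adjusted p = 7.03e-04). Grem1, a secreted BMP antagonist, had 8.37 and 7.12 in BM-SSCs and 4.18 and 3.99 in CD45+ cells (difference 3.67, SE 1.15, adjusted p = 0.0967, and 0.169 on array 1 alone and 0.00282 without the P-SSC arrays). The groups did not overlap for either gene. Lepr, and Flt1 below, each had 4 probe sets, of which 1 other than the one given passed as higher. Genes that passed were likewise called on the 1 probe set given, and their other probe sets did not always pass. As examples, 3 of 6 probe sets passed for Fmod, 1 of 3 for Ptn, 1 of 2 for Col3a1 and 3 of 3 for Bgn. Kdr, the VEGF receptor VEGFR2, had 7.72 and 7.58 in BM-SSCs and 5.93 and 5.74 in CD45+ cells and was higher (difference 1.81, SE 0.43, adjusted p = 0.0438, and 0.101 on array 1 alone). Flt1, which encodes VEGFR1, had 6.80 and 6.46 in BM-SSCs and 4.36 and 4.56 in CD45+ cells (difference 2.17, SE 0.65, adjusted p = 0.0841, and 0.184 on array 1 alone and 0.0155 without the P-SSC arrays).

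Receptors that read these niche factors on blood cells were lower in BM-SSCs in part. Of 14 measured, against a background of 8.02% of all genes, 9 were lower and 0 higher (leave-out counts 10, 7, 5, 5, 10 and 11), with a median difference of -2.93. Cxcr4, the receptor of CXCL12, had 6.34 and 5.18 in BM-SSCs and 9.79 and 10.45 in CD45+ cells, the reverse of its ligand (difference -4.36, SE 0.46, adjusted p = 0.00238, and 0.00788 on array 1 alone). Csf1r, the macrophage colony-stimulating factor receptor, had 7.11 and 6.06 in BM-SSCs and 11.97 and 11.67 in CD45+ cells (difference -5.23, SE 0.47, adjusted p = 0.00144, and 0.00672 on array 1 alone). Il7r, the interleukin 7 receptor of lymphoid precursors, had 3.68 and 4.68 in BM-SSCs and 8.46 and 8.71 in CD45+ cells (difference -4.40, SE 0.64, adjusted p = 0.00768, and 0.0188 on array 1 alone). These 3 receptors were separated from the CD45+ arrays by over 3 units on both BM-SSC arrays. Kit, the receptor of stem cell factor, had 4.57 and 3.43 in BM-SSCs and 6.61 and 7.05 in CD45+ cells (difference -2.83, SE 0.58, adjusted p = 0.0269, and 0.101 on array 1 alone). Notch2, which receives the signal of Jag1, was read differently by the BM-SSC arrays, with 9.01 and 4.62 in BM-SSCs and 9.92 and 9.92 in CD45+ cells and did not pass (adjusted p = 0.333, and 1 on array 1 alone).

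**Figure D3:**
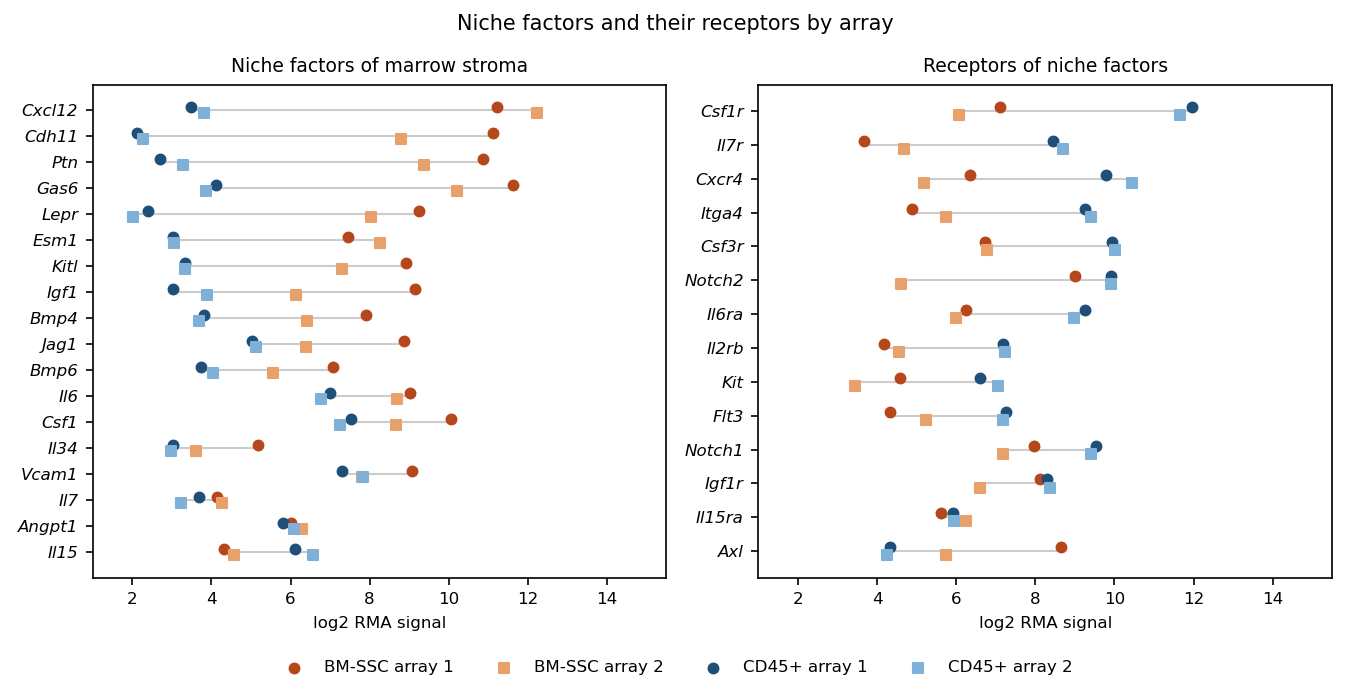
Log2 RMA signal (horizontal axes) of the 18 niche factors (left) and 14 receptors (right) on the 2 BM-SSC arrays (orange) and the 2 CD45+ arrays (blue), circles for array 1 and squares for array 2. Cxcl12 stands at 11.21 and 12.23 in BM-SSCs and 3.48 and 3.80 in CD45+ cells, and Cxcr4 at 6.34 and 5.18 in BM-SSCs and 9.79 and 10.45 in CD45+ cells.

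Genes of the osteoblast lineage were higher in BM-SSCs in part. Of 20 osteoblast and osteocyte genes measured, 11 were higher and 0 lower (leave-out counts 7, 9, 2, 1, 14 and 18), with a median difference of 3.80, 4.98 on array 1 and 2.91 on array 2. Dmp1, a phosphoprotein of osteocytes, had 13.02 and 11.28 in BM-SSCs and 2.46 and 2.44 in CD45+ cells (difference 9.70, SE 1.23, adjusted p = 0.00459, and 0.016 on array 1 alone). Ibsp, bone sialoprotein, had 12.63 and 11.67 in BM-SSCs and 2.97 and 3.01 in CD45+ cells. Mmp13, a collagenase of hypertrophic cartilage and osteoblasts, had 13.62 and 12.71 in BM-SSCs and 2.21 and 2.46 in CD45+ cells. Alpl, the alkaline phosphatase of mineralizing cells, had 9.29 and 7.97 in BM-SSCs and 4.34 and 4.13 in CD45+ cells (difference 4.40, SE 0.46, adjusted p = 0.00233, and 0.00388 on array 1 alone). Omd, a proteoglycan of mineralized tissue, had 10.76 and 7.99 in BM-SSCs and 3.30 and 3.44 in CD45+ cells (adjusted p = 0.0191, and 0.0192 on array 1 alone). Other osteocyte genes did not pass. Sost, the Wnt inhibitor sclerostin, had 4.52 and 4.88 in BM-SSCs and 4.15 and 4.37 in CD45+ cells, and Fgf23, a phosphate-regulating hormone, had 2.94 and 3.30 in BM-SSCs and 3.02 and 2.91 in CD45+ cells. Mepe, a phosphoglycoprotein of osteocytes, had 5.84 and 5.13 in BM-SSCs and 4.54 and 4.44 in CD45+ cells (adjusted p = 0.158, and 0.0989 on array 1 alone), and Phex, an endopeptidase of phosphate control, had 8.87 and 5.43 in BM-SSCs and 2.74 and 2.34 in CD45+ cells (adjusted p = 0.0913, and 0.0609 on array 1 alone).

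Transcription factors of skeletal stroma were higher in BM-SSCs in part. Of 31 factors of skeletal stroma, 12 were higher and 0 lower (leave-out counts 9, 13, 1, 0, 21 and 29), with a median difference of 2.72. Snai2, a repressor of epithelial genes, had 9.98 and 8.49 in BM-SSCs and 2.83 and 2.99 in CD45+ cells (difference 6.33, SE 0.96, adjusted p = 0.00919, and 0.0232 on array 1 alone). Sp7, or Osterix, which osteoblast formation requires, had 8.15 and 7.11 in BM-SSCs and 4.30 and 4.05 in CD45+ cells (difference 3.46, SE 0.42, adjusted p = 0.00373, and 0.00631 on array 1 alone). Ebf3, a factor of the marrow niche stroma, had 7.06 and 5.78 in BM-SSCs and 2.63 and 2.37 in CD45+ cells (difference 3.92, SE 0.73, adjusted p = 0.0197, and 0.0327 on array 1 alone). All 3 passed with array 1 alone (adjusted p between 0.00631 and 0.0327). Dlx5, a homeobox factor of osteoblast formation, had 8.34 and 5.98 in BM-SSCs and 3.33 and 2.71 in CD45+ cells (difference 4.14, SE 0.78, adjusted p = 0.0202, and 0.00947 on array 1 alone). Tead1, a DNA-binding partner of YAP, had 8.76 and 6.34 in BM-SSCs and 3.50 and 3.64 in CD45+ cells (adjusted p = 0.0412, and 0.0267 on array 1 alone), and Zfhx4, a zinc finger homeobox factor, had 8.03 and 5.46 in BM-SSCs and 2.62 and 2.45 in CD45+ cells (adjusted p = 0.0392, and 0.0244 on array 1 alone). All 6 of these factors were over 2 units apart between the populations. Prrx1, a marker of limb mesenchyme, had 10.38 and 7.04 in BM-SSCs and 3.03 and 2.89 in CD45+ cells without passing (adjusted p = 0.127, and 0.151 on array 1 alone).

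Of 28 transcription factors of blood cells, 15 were lower and 0 higher (leave-out counts 14, 10, 4, 4, 18 and 21), with a median difference of -2.59. Irf8, which directs monocyte and dendritic cell formation, had 4.92 and 4.13 in BM-SSCs and 11.19 and 10.82 in CD45+ cells (difference -6.48, SE 0.53, adjusted p = 0.00126, and 0.00689 on array 1 alone). Spib, an ETS factor of B cells and plasmacytoid dendritic cells, had 4.61 and 4.95 in BM-SSCs and 10.64 and 10.49 in CD45+ cells (difference -5.79, SE 0.49, adjusted p = 0.00136, and 0.00708 on array 1 alone). Gfi1, a repressor needed for neutrophils, had 3.59 and 3.03 in BM-SSCs and 7.99 and 8.52 in CD45+ cells (difference -4.94, SE 0.54, adjusted p = 0.0026, and 0.015 on array 1 alone). The BM-SSC arrays lay within 1 unit of each other on these 3 genes. Ebf1, used by B cells and marrow stroma, had 9.21 and 6.72 in BM-SSCs and 7.82 and 7.84 in CD45+ cells, and Runx1, used by blood and skeletal cells, had 9.08 and 6.52 in BM-SSCs and 8.34 and 8.28 in CD45+ cells. For both the CD45+ arrays lay between the BM-SSC arrays, and neither passed (adjusted p = 0.96, and 0.986 on array 1 alone, for Ebf1 and adjusted p = 0.801, and 1 on array 1 alone, for Runx1), with a sign that turned with the array left out.

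Collagen chains and the enzymes that modify them were higher in BM-SSCs in part. Of 39 chains, 11 were higher and 0 lower (leave-out counts 6, 8, 0, 0, 25 and 31), with a median difference of 3.29. Col1a1, a chain of type I collagen, had 13.34 and 12.39 in BM-SSCs and 4.66 and 4.61 in CD45+ cells (adjusted p = 0.04, and 0.111 on array 1 alone), and Col1a2, the other chain, had 14.70 and 13.89 in BM-SSCs and 6.84 and 6.54 in CD45+ cells (adjusted p = 0.048, and 0.132 on array 1 alone). Col5a2, a chain of the type V collagen that nucleates fibrils, had 13.49 and 11.33 in BM-SSCs and 3.97 and 4.07 in CD45+ cells (difference 8.39, SE 1.94, adjusted p = 0.04, and 0.0847 on array 1 alone). Chains of cartilage collagen passed too: Col2a1 had 10.28 and 8.46 in BM-SSCs and 3.66 and 3.31 in CD45+ cells (difference 5.88, SE 0.78, adjusted p = 0.00558, and 0.00963 on array 1 alone), and Col11a1 had 11.59 and 8.25 in BM-SSCs and 2.60 and 2.96 in CD45+ cells (difference 7.14, SE 1.30, adjusted p = 0.0176, and 0.0166 on array 1 alone). Col10a1, the marker of hypertrophic chondrocytes, had 4.10 and 5.30 in BM-SSCs and 4.07 and 3.54 in CD45+ cells and did not pass. Among 19 genes of collagen processing, 7 were higher and 0 lower (leave-out counts 4, 7, 0, 0, 13 and 17). Serpinh1, the collagen chaperone of the endoplasmic reticulum, had 12.88 and 11.38 in BM-SSCs and 5.65 and 5.18 in CD45+ cells (adjusted p = 0.0402, and 0.091 on array 1 alone). Plod2, a lysyl hydroxylase, had 10.53 and 7.53 in BM-SSCs and 3.55 and 3.59 in CD45+ cells and passed in both settings (adjusted p = 0.046, and 0.0434 on array 1 alone).

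Of 35 proteoglycans, glycoproteins and elastic fiber proteins, 10 were higher and 0 lower, with leave-out counts of 3, 2, 0, 0, 24 and 35. The median difference was 3.86. Dcn, decorin, had 14.09 and 12.95 in BM-SSCs and 3.90 and 4.44 in CD45+ cells, and Bgn, biglycan, had 13.39 and 12.45 in BM-SSCs and 4.24 and 4.26 in CD45+ cells (adjusted p = 0.0205, and 0.0632 on array 1 alone, for Dcn and adjusted p = 0.0229, and 0.0714 on array 1 alone, for Bgn). Tnc, tenascin C, had 11.34 and 9.74 in BM-SSCs and 2.67 and 3.31 in CD45+ cells (difference 7.55, SE 1.58, adjusted p = 0.0284, and 0.0696 on array 1 alone). Fn1, fibronectin, did not pass, with 13.58 and 11.66 in BM-SSCs and 11.92 and 11.60 in CD45+ cells (difference 0.86, SE 2.02, adjusted p = 0.792, and 1 on array 1 alone), and array 2 lay within the range of the CD45+ arrays.

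Of 34 genes of the BMP and TGF-beta pathway, 4 were higher and 0 lower (leave-out counts 3, 3, 0, 0, 20 and 30). Fstl1, a secreted follistatin-like protein, had 11.53 and 9.80 in BM-SSCs and 3.32 and 2.75 in CD45+ cells (difference 7.63, SE 1.66, adjusted p = 0.0327, and 0.0757 on array 1 alone). Tgfb3, a TGF-beta ligand, had 8.45 and 5.95 in BM-SSCs and 3.55 and 3.40 in CD45+ cells (difference 3.73, SE 0.91, adjusted p = 0.0481, and 0.0253 on array 1 alone). Fst, the activin antagonist follistatin, had 7.22 and 6.32 in BM-SSCs and 3.98 and 3.87 in CD45+ cells (adjusted p = 0.0353, and 0.0596 on array 1 alone), and Chrd, the BMP antagonist chordin, had 5.73 and 5.79 in BM-SSCs and 4.47 and 4.27 in CD45+ cells (adjusted p = 0.0347, and 0.0728 on array 1 alone). The TGF-beta receptors did not pass: Tgfbr2 had 10.67 and 6.57 in BM-SSCs and 9.81 and 9.88 in CD45+ cells, and Tgfbr1 had 8.75 and 5.05 in BM-SSCs and 8.50 and 8.58 in CD45+ cells, with array 2 below and array 1 above the CD45+ arrays for both.

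Of 35 Wnt pathway genes, 7 were higher and 0 lower (leave-out counts 5, 12, 1, 1, 16 and 28). Wif1, a secreted Wnt antagonist, had 10.61 and 8.73 in BM-SSCs and 2.14 and 1.89 in CD45+ cells (difference 7.66, SE 1.57, adjusted p = 0.0266, and 0.0609 on array 1 alone), and Sfrp4, another, had 10.16 and 9.19 in BM-SSCs and 5.01 and 4.73 in CD45+ cells (difference 4.80, SE 1.03, adjusted p = 0.0313, and 0.0748 on array 1 alone). The receptor Fzd2 had 6.43 and 6.43 in BM-SSCs and 3.62 and 3.66 in CD45+ cells. The BM-SSC value, 6.43336 on both arrays, was also that of P-SSC array 2 and Osx+ array 1. The agreement of the BM-SSC arrays, and the small SE below, may therefore not measure how replicates vary. Fzd2 had 3 probe sets, of which 1 passed. Its arrays agreed within each population to 0.05 units, and it passed without each of the 4 compared arrays in turn (difference 2.79, SE 0.30, adjusted p = 0.00238, and 0.00877 on array 1 alone). The ligand Wnt16 had 6.67 and 5.90 in BM-SSCs and 3.63 and 3.41 in CD45+ cells (adjusted p = 0.00621, and 0.00923 on array 1 alone), and the ligand Wnt4 had 6.78 and 6.35 in BM-SSCs and 4.91 and 4.88 in CD45+ cells (adjusted p = 0.0398, and 0.0595 on array 1 alone). Axin2, a transcript that canonical Wnt signalling induces, had 6.08 and 5.28 in BM-SSCs and 5.23 and 5.52 in CD45+ cells and did not pass (adjusted p = 0.636, and 0.502 on array 1 alone).

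Among 33 ligands, receptors and binding proteins of the PDGF, FGF, IGF and VEGF families, 8 were higher and 1 lower (leave-out counts of higher members 6, 8, 0, 0, 20 and 25). Igfbp5, which binds IGF in bone, had 12.87 and 11.34 in BM-SSCs and 3.33 and 3.33 in CD45+ cells (difference 8.78, SE 1.86, adjusted p = 0.0296, and 0.078 on array 1 alone). Igf2 had 9.26 and 7.93 in BM-SSCs and 4.88 and 4.69 in CD45+ cells (difference 3.81, SE 0.52, adjusted p = 0.00604, and 0.00736 on array 1 alone), and Pdgfd, a PDGF ligand, had 7.47 and 5.50 in BM-SSCs and 2.56 and 2.51 in CD45+ cells (difference 3.95, SE 0.66, adjusted p = 0.0133, and 0.00759 on array 1 alone). Fgfr2, an FGF receptor of osteogenic cells, had 10.11 and 7.83 in BM-SSCs and 4.38 and 4.09 in CD45+ cells (difference 4.74, SE 0.89, adjusted p = 0.0195, and 0.0166 on array 1 alone). These 3, Igf2, Pdgfd and Fgfr2, also passed with array 1 alone. Met, the receptor of hepatocyte growth factor, was the member that went the other way, with 4.03 and 3.12 in BM-SSCs and 7.70 and 7.20 in CD45+ cells (difference -3.88, SE 0.43, adjusted p = 0.0026, and 0.0101 on array 1 alone).

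Markers of other cells that a marrow stromal sort could hold were higher in part. Of 18 pericyte and smooth muscle markers, 5 were higher (leave-out counts 3, 3, 0, 0, 13 and 14); Rgs5, a pericyte marker, had 9.02 and 8.62 in BM-SSCs and 2.50 and 2.77 in CD45+ cells, and Cald1, the actin-binding caldesmon, had 10.92 and 9.38 in BM-SSCs and 2.43 and 2.64 in CD45+ cells (adjusted p = 0.0371, and 0.112 on array 1 alone, for Rgs5 and adjusted p = 0.0168, and 0.0446 on array 1 alone, for Cald1). Of 20 endothelial markers, 5 were higher (leave-out counts 3, 2, 0, 0, 12 and 17). They included Cldn5, a tight junction protein, with 7.01 and 6.83 in BM-SSCs and 4.54 and 3.77 in CD45+ cells, and Stab2, a scavenger receptor of sinusoids, with 6.01 and 6.02 in BM-SSCs and 3.58 and 3.62 in CD45+ cells (adjusted p = 0.0255, and 0.0737 on array 1 alone, for Cldn5 and adjusted p = 0.0185, and 0.0581 on array 1 alone, for Stab2). Cdh5, which encodes VE-cadherin, had 6.94 and 6.46 in BM-SSCs and 5.72 and 6.20 in CD45+ cells and did not pass, as Pecam1 did not. The summed signal of the 20 markers was 10.78 and 10.15 log2 units on the BM-SSC arrays and 9.17 and 9.15 on the CD45+ arrays, and what part endothelial RNA had in Kdr or Flt1 was not tested. Of 20 chondrocyte markers, 7 were higher (leave-out counts 5, 10, 0, 0, 15 and 17), among them Cytl1, a secreted protein of cartilage, with 9.53 and 10.44 in BM-SSCs and 3.60 and 3.68 in CD45+ cells (difference 6.35, SE 0.95, adjusted p = 0.00849, and 0.044 on array 1 alone), and Acan, aggrecan, with 8.51 and 6.84 in BM-SSCs and 3.97 and 4.12 in CD45+ cells (adjusted p = 0.0221, and 0.0208 on array 1 alone). Of 15 adipogenic and lipid handling genes, 1 was higher and 0 lower (leave-out counts of higher members 0, 0, 0, 0, 4 and 7, and of lower members 0, 0, 0, 0, 3 and 4). This was Gpx3, a secreted glutathione peroxidase, with 12.42 and 10.94 in BM-SSCs and 5.72 and 5.72 in CD45+ cells (adjusted p = 0.0423, and 0.0907 on array 1 alone). Adipoq, the hormone adiponectin, had 8.44 and 10.05 in BM-SSCs and 2.97 and 3.11 in CD45+ cells without overlap and without passing (adjusted p = 0.0752, and 0.286 on array 1 alone and 0.00137 without the P-SSC arrays).

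Among 15 Schwann cell and neural genes, 3 were higher (leave-out counts 5, 6, 2, 2, 5 and 9). Fabp7, a fatty acid binding protein of radial glia and Schwann cell precursors, had 8.26 and 10.40 in BM-SSCs and 3.18 and 3.18 in CD45+ cells (difference 6.15, SE 0.68, adjusted p = 0.00271, and 0.00677 on array 1 alone). S100b, a calcium-binding protein of glia and cartilage, had 7.66 and 7.99 in BM-SSCs and 4.35 and 4.32 in CD45+ cells (difference 3.49, SE 0.39, adjusted p = 0.00283, and 0.0136 on array 1 alone). Both genes passed without each of the 4 compared arrays in turn. Mbp, myelin basic protein, had 8.52 and 11.56 in BM-SSCs and 5.08 and 4.82 in CD45+ cells and did not pass (adjusted p = 0.0913, and 0.403 on array 1 alone), and Sox10, the factor that defines the Schwann cell lineage, had 5.45 and 6.85 in BM-SSCs and 5.39 and 5.12 in CD45+ cells (adjusted p = 0.376, and 1 on array 1 alone). Fabp7, Mbp and Sox10 read higher on BM-SSC array 2 than on array 1, by 2.13, 3.04 and 1.40 units. The summed signal of the 15 genes was 11.43 and 12.41 on the BM-SSC arrays and 11.20 and 11.25 on the CD45+ arrays, and what part nerve-associated cells had in it was not tested.

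**Figure D4:**
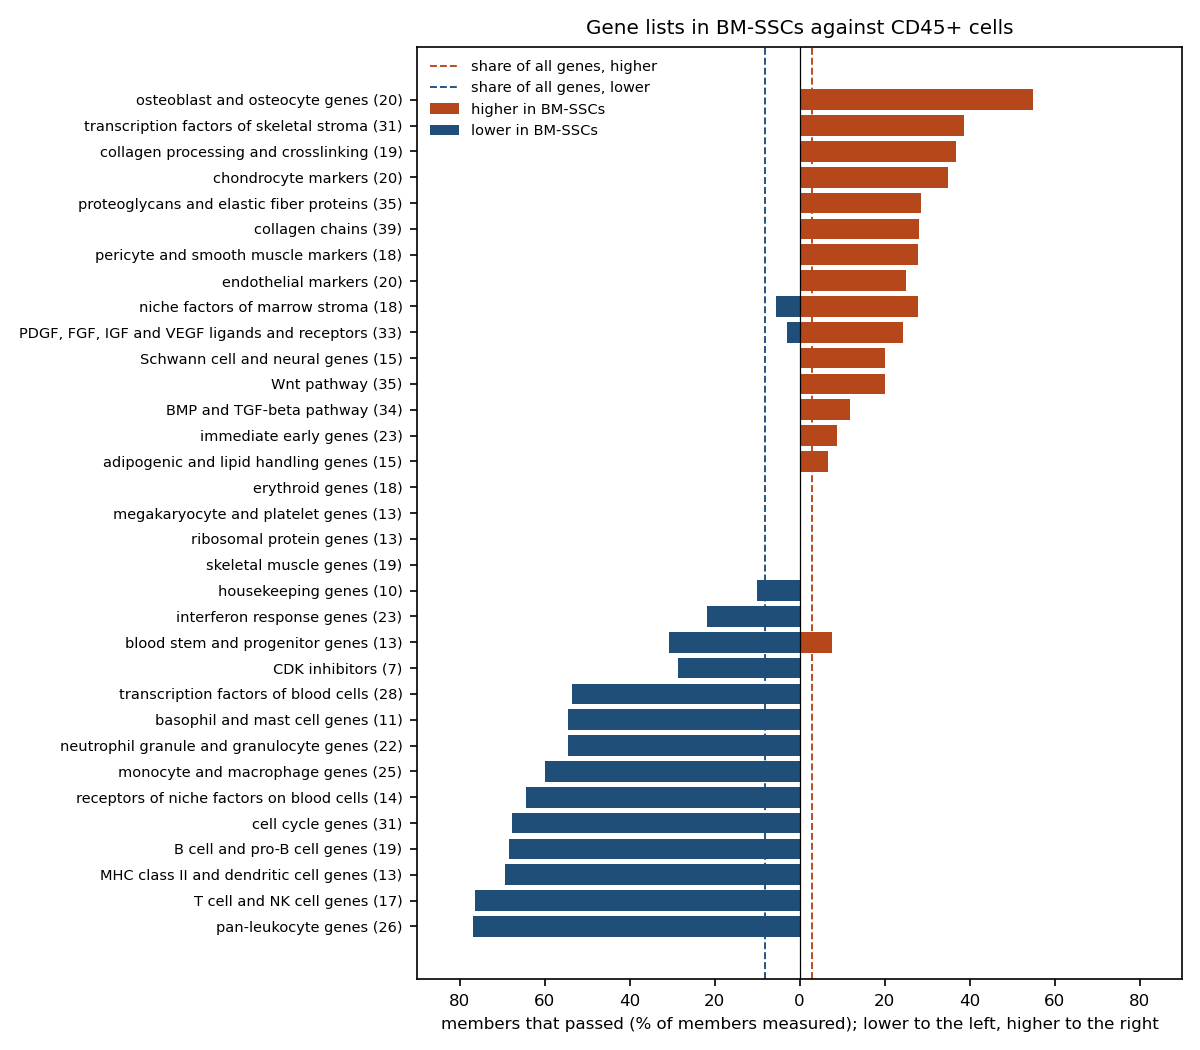
Share of the measured members of each gene list (number measured in parentheses) that passed as higher (orange, to the right) or lower (blue, to the left) in BM-SSCs, in percent on the horizontal axis, with dashed lines at the shares over all genes (2.94% higher and 8.02% lower). Osteoblast and osteocyte genes stand at the top with 11 of 20 higher, and pan-leukocyte genes at the bottom with 20 of 26 lower.

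Most genes of the pan-leukocyte list were lower in BM-SSCs. Of 26 pan-leukocyte genes, 20 were lower and 0 higher (leave-out counts 21, 18, 11, 12, 26 and 26), with a median difference of -4.35, -3.93 on array 1 and -4.63 on array 2. Itgal, a chain of the integrin LFA-1, had 5.36 and 4.97 in BM-SSCs and 10.98 and 10.96 in CD45+ cells (difference -5.81, SE 0.39, adjusted p = 8.10e-04, and 0.00518 on array 1 alone). Cd53, a leukocyte tetraspanin, had 6.99 and 5.78 in BM-SSCs and 11.60 and 11.48 in CD45+ cells (difference -5.16, SE 0.53, adjusted p = 0.00213, and 0.00877 on array 1 alone). A signal was left for part of the list: Laptm5, a lysosomal protein of blood cells, had 9.41 and 8.03 in BM-SSCs and 12.41 and 12.26 in CD45+ cells and did not pass (adjusted p = 0.1, and 0.39 on array 1 alone), and Coro1a, an actin regulator of leukocytes, had 8.78 and 6.67 in BM-SSCs and 12.27 and 12.19 in CD45+ cells and did (adjusted p = 0.0318, and 0.129 on array 1 alone).

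Most lymphoid genes were lower in BM-SSCs. Of 19 B cell genes, 13 were lower and 0 higher (leave-out counts 13, 12, 6, 5, 14 and 15). Cd79b, a chain of the B cell receptor complex, had 5.07 and 5.41 in BM-SSCs and 11.33 and 11.54 in CD45+ cells (difference -6.20, SE 0.53, adjusted p = 0.00136, and 0.00729 on array 1 alone). Pou2af1, a coactivator of immunoglobulin genes, had 4.03 and 3.72 in BM-SSCs and 9.67 and 10.13 in CD45+ cells (difference -6.02, SE 0.71, adjusted p = 0.00348, and 0.0202 on array 1 alone). Igll1, a surrogate light chain of B cell precursors, had 5.06 and 5.74 in BM-SSCs and 5.47 and 5.48 in CD45+ cells and did not pass. Of 17 T cell and NK cell genes, 13 were lower and 0 higher (leave-out counts 12, 12, 6, 4, 13 and 14), among them Klrd1, an NK cell receptor, with 2.63 and 2.82 in BM-SSCs and 8.76 and 8.81 in CD45+ cells, and Cd3g, a chain of the T cell receptor complex, with 2.72 and 2.64 in BM-SSCs and 6.91 and 7.26 in CD45+ cells (adjusted p = 0.00144, and 0.00835 on array 1 alone, for Klrd1 and adjusted p = 0.00118, and 0.00609 on array 1 alone, for Cd3g). Basophil and mast cell genes were lower for 6 of 11 (leave-out counts 6, 6, 3, 3, 6 and 8). Ms4a2, the beta chain of the immunoglobulin E receptor, had 2.73 and 3.27 in BM-SSCs and 8.99 and 8.82 in CD45+ cells (difference -5.91, SE 0.32, adjusted p = 6.82e-04, and 0.00338 on array 1 alone). Mcpt4, a protease of tissue mast cells, had 3.78 and 4.69 in BM-SSCs and 3.72 and 3.38 in CD45+ cells and did not pass.

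Monocyte and macrophage genes were lower in part. Of 25 measured, 15 were lower and 0 higher (leave-out counts 15, 13, 9, 9, 15 and 16). Ccr2, the chemokine receptor of inflammatory monocytes, had 4.27 and 4.66 in BM-SSCs and 11.25 and 10.81 in CD45+ cells (difference -6.56, SE 0.41, adjusted p = 7.86e-04, and 0.00388 on array 1 alone). Adgre1, an adhesion receptor of macrophages, had 3.86 and 4.89 in BM-SSCs and 9.12 and 9.39 in CD45+ cells (difference -4.88, SE 0.46, adjusted p = 0.0016, and 0.00543 on array 1 alone). C1qa, a complement chain that macrophages make, had 4.14 and 5.41 in BM-SSCs and 4.14 and 3.86 in CD45+ cells, and Cd163, a scavenger receptor, had 4.51 and 4.83 in BM-SSCs and 4.70 and 4.77 in CD45+ cells. For neither did the test pass.

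Neutrophil genes were lower in part, and some of their transcripts had a high signal in the CD45-depleted BM-SSCs too. Of 22 measured, 12 were lower and 0 higher (leave-out counts 12, 11, 6, 5, 16 and 15). S100a8, a subunit of calprotectin, had 13.14 and 13.02 in BM-SSCs and 14.19 and 14.17 in CD45+ cells, a difference of -1.09 that did not pass (SE 0.90, adjusted p = 0.465, and 0.94 on array 1 alone). S100a9, the other subunit, had 13.16 and 13.29 in BM-SSCs and 14.68 and 14.72 in CD45+ cells (difference -1.47, SE 1.10, adjusted p = 0.428, and 0.852 on array 1 alone). Ngp, a protein of secondary granules, had 12.13 and 11.80 in BM-SSCs and 13.74 and 13.79 in CD45+ cells (difference -1.80, SE 1.33, adjusted p = 0.423, and 0.913 on array 1 alone). Both BM-SSC arrays read each of these 3 transcripts above 11 and the CD45+ arrays above 13. On the CD45+ arrays S100a9 read above the brightest control probe set, which had 14.57 and 14.33 there. Whether the top of the signal range narrowed these differences was not tested, so their size may not compare with that of dimmer genes. Camp, the antimicrobial cathelicidin, had 11.54 and 11.21 in BM-SSCs and 13.66 and 13.84 in CD45+ cells, and Lcn2, lipocalin 2, had 9.98 and 9.07 in BM-SSCs and 12.74 and 12.74 in CD45+ cells, and neither passed. Other neutrophil genes did pass. Csf3r, the receptor of granulocyte colony-stimulating factor, had 6.72 and 6.78 in BM-SSCs and 9.93 and 10.02 in CD45+ cells (difference -3.22, SE 0.34, adjusted p = 0.00238, and 0.00977 on array 1 alone), Elane, neutrophil elastase, had 5.06 and 5.80 in BM-SSCs and 9.41 and 9.73 in CD45+ cells (difference -4.14, SE 0.48, adjusted p = 0.00304, and 0.00964 on array 1 alone), and Mmp8, neutrophil collagenase, had 6.54 and 6.47 in BM-SSCs and 11.28 and 10.96 in CD45+ cells (difference -4.62, SE 0.44, adjusted p = 0.00167, and 0.00943 on array 1 alone). Differences within the list lay between -6.48 and -1.09. The summed signal of the 22 genes was 14.98 and 14.78 log2 units on the BM-SSC arrays and 16.98 and 17.05 on the CD45+ arrays, and what part neutrophil RNA had in other differences was not tested.

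**Figure D5:**
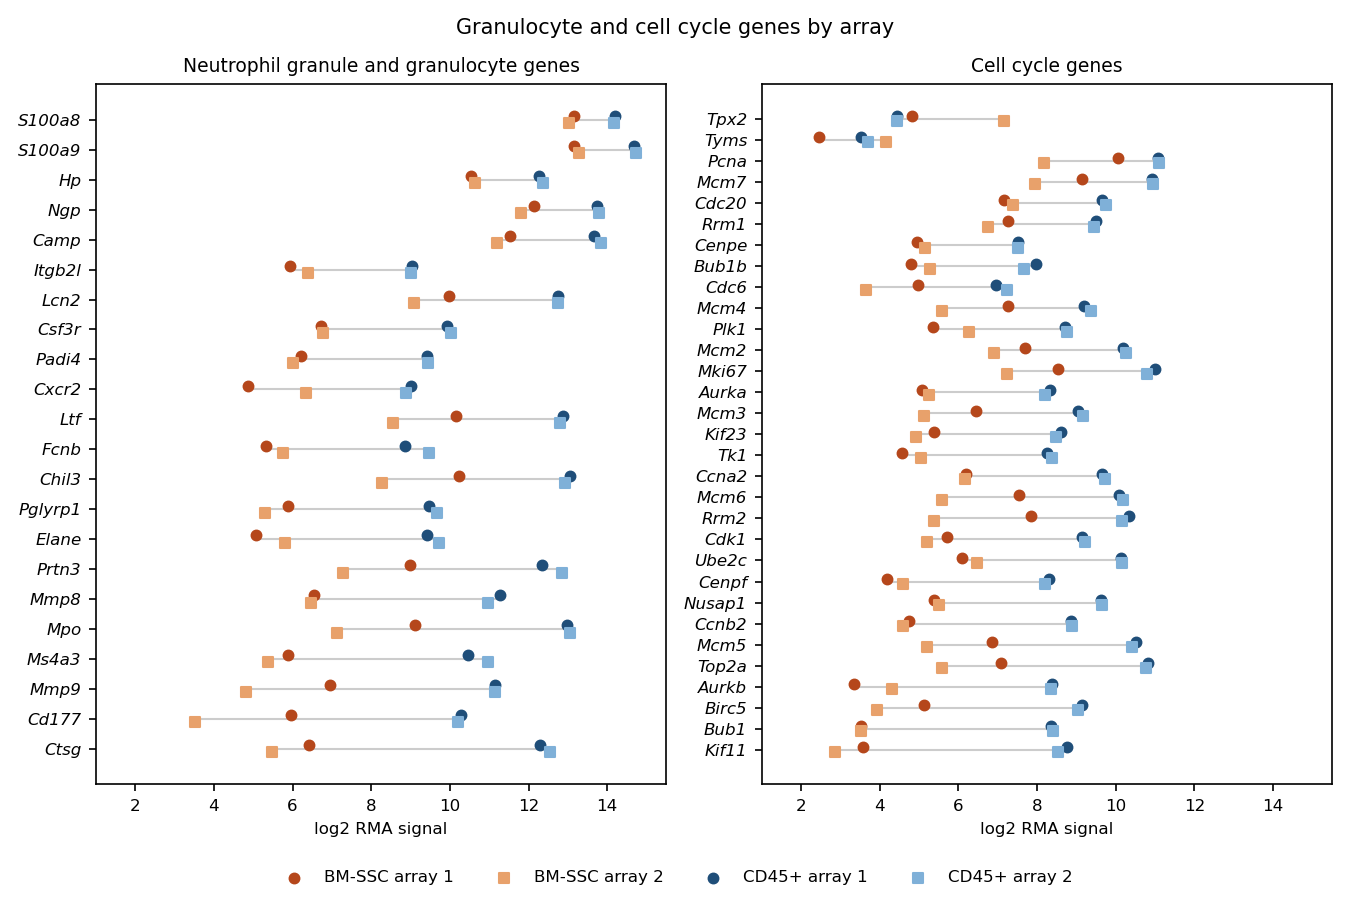
Log2 RMA signal (horizontal axes) of 22 granulocyte genes (left) and 31 cell cycle genes (right) on the 2 BM-SSC arrays (orange) and the 2 CD45+ arrays (blue), circles for array 1 and squares for array 2, ordered by difference. S100a8 at the top left stands at 13.14 and 13.02 in BM-SSCs and 14.19 and 14.17 in CD45+ cells, while Kif11 at the bottom right stands at 3.58 and 2.87 in BM-SSCs and 8.75 and 8.53 in CD45+ cells.

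MHC class II genes, which present antigen on B cells, dendritic cells and macrophages, were mostly lower in BM-SSCs. Of 13 class II and dendritic cell genes, 9 were lower and 0 higher (leave-out counts 8, 8, 7, 7, 11 and 11), with a median difference of -4.53. H2-Aa had 6.69 and 7.21 in BM-SSCs and 12.87 and 12.93 in CD45+ cells (difference -5.95, SE 0.51, adjusted p = 0.00136, and 0.00675 on array 1 alone). H2-Eb1 had 5.84 and 6.95 in BM-SSCs and 11.79 and 11.81 in CD45+ cells (difference -5.40, SE 0.44, adjusted p = 0.00125, and 0.00338 on array 1 alone). H2-Oa, a chain of the modulator H2-O, had 3.55 and 4.54 in BM-SSCs and 9.71 and 9.66 in CD45+ cells (difference -5.64, SE 0.55, adjusted p = 0.00185, and 0.00683 on array 1 alone). These chains moved together on both arrays. Ciita, the transactivator of class II genes, had 4.34 and 5.81 in BM-SSCs and 6.89 and 7.42 in CD45+ cells without overlap and did not pass (adjusted p = 0.101, and 0.0725 on array 1 alone).

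Class II promoters are known for a Y box, an inverted CCAAT element bound by NF-Y. The Y box letters CTGATTGG, whose other strand holds CCAAT, were chosen after the values were seen and searched on both strands of the RefSeq promoter windows (GRCm38.p6, 300 bases around the first start site listed for a gene). They were found in 3 of the 10 promoters of this list and in 5.36% of 14452 promoters of measured genes, 4.83% of those called higher and 7.45% of those called lower. The 3 promoters with a match are shown, and the other 7 hold none of these letters. A match is a description of the letters and not a bound site. In the following windows, 5′ to 3′ on the gene's strand, capitals mark these letters: H2-Aa at chr17:34287774-34288073 on the minus strand, H2-Eb1 at chr17:34305617-34305916 on the plus strand and H2-Oa at chr17:34092129-34092428 on the plus strand.
H2-Aa: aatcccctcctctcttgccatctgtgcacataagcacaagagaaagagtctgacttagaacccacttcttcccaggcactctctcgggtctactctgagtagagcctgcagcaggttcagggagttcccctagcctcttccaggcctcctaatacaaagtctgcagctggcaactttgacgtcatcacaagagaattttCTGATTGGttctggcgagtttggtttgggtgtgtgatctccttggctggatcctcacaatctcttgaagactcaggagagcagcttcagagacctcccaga
H2-Eb1: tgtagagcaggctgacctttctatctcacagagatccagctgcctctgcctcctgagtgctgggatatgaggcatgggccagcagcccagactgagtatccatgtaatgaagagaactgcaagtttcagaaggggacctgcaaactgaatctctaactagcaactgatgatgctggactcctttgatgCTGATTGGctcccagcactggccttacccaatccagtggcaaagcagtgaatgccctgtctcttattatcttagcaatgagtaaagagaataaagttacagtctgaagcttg
H2-Oa: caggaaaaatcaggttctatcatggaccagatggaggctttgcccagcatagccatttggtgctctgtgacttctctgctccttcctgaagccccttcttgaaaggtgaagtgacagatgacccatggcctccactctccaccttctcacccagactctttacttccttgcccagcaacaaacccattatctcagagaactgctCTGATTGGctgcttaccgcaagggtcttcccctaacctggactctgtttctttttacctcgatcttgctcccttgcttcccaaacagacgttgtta

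Most cell cycle genes were lower in BM-SSCs. Of 31 measured, 21 were lower and 0 higher (leave-out counts 25, 16, 8, 8, 28 and 30), with a median difference of -3.40. Kif11, a motor protein of the mitotic spindle, had 3.58 and 2.87 in BM-SSCs and 8.75 and 8.53 in CD45+ cells (difference -5.42, SE 0.58, adjusted p = 0.00247, and 0.0141 on array 1 alone). Bub1, a kinase of the spindle checkpoint, had 3.52 and 3.53 in BM-SSCs and 8.36 and 8.40 in CD45+ cells (difference -4.85, SE 0.49, adjusted p = 0.00213, and 0.0113 on array 1 alone). Ccnb2, a mitotic cyclin, had 4.74 and 4.58 in BM-SSCs and 8.87 and 8.90 in CD45+ cells (difference -4.22, SE 0.56, adjusted p = 0.00563, and 0.0262 on array 1 alone). Cdk1, the kinase that drives entry into mitosis, had 5.72 and 5.19 in BM-SSCs and 9.13 and 9.21 in CD45+ cells (difference -3.71, SE 0.42, adjusted p = 0.00287, and 0.014 on array 1 alone). The BM-SSC arrays lay below both CD45+ arrays by over 3 units for each of these 4, and all 4 passed with array 1 alone. Some genes of DNA replication did not pass: Mcm5, a subunit of the replicative helicase, had 6.84 and 5.20 in BM-SSCs and 10.52 and 10.43 in CD45+ cells (adjusted p = 0.058, and 0.24 on array 1 alone), and Pcna, the sliding clamp, had 10.06 and 8.17 in BM-SSCs and 11.08 and 11.10 in CD45+ cells (adjusted p = 0.44, and 1 on array 1 alone). Of 7 CDK inhibitors 2 were lower (leave-out counts 3, 0, 0, 0, 2 and 2). These are counts of lower members. Without the P-SSC arrays 2 of the 7 were higher beside the 2 lower. Cdkn2c, or p18, had 7.58 and 7.58 in BM-SSCs and 9.38 and 9.17 in CD45+ cells (adjusted p = 0.0277, and 0.067 on array 1 alone), and Cdkn2d, or p19, had 8.13 and 6.07 in BM-SSCs and 10.17 and 10.09 in CD45+ cells (adjusted p = 0.0492, and 0.163 on array 1 alone). Cdkn1c, or p57, had 8.55 and 6.71 in BM-SSCs and 4.17 and 4.32 in CD45+ cells and did not pass (adjusted p = 0.137, and 0.174 on array 1 alone), and neither did Cdkn1a, or p21, with 11.17 and 9.26 in BM-SSCs and 7.18 and 7.03 in CD45+ cells (adjusted p = 0.097, and 0.0952 on array 1 alone).

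Promoters of mitotic genes are known for CCAAT boxes and for a downstream element, the cell cycle genes homology region, with the letters TTTGAA, both chosen after the values were seen. CCAAT was found on either strand in 22 of the 27 promoters of the cell cycle list, 81.5%, and in 38.2% of 14452 promoters. TTTGAA was found in 13 of 27, 48.1%, and in 13.3% of 14452 promoters. Among genes called lower as a whole the shares were 41.4% for CCAAT and 16.4% for TTTGAA, and among genes called higher 32.1% and 10.4%. Ccnb2 and Cdk1 are shown as examples of promoters that hold both motifs, which do not overlap in these windows. In them capitals mark either of them on either strand. Ccnb2 lies at chr9:70421505-70421804 and Cdk1 at chr10:69352863-69353162, both on the minus strand and both printed 5′ to 3′ on that strand.
Ccnb2: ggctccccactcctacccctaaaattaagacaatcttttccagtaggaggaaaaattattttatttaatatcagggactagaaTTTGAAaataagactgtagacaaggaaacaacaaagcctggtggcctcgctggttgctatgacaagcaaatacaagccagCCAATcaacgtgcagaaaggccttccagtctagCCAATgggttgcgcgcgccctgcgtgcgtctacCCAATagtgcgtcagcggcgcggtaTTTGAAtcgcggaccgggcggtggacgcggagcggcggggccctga
Cdk1: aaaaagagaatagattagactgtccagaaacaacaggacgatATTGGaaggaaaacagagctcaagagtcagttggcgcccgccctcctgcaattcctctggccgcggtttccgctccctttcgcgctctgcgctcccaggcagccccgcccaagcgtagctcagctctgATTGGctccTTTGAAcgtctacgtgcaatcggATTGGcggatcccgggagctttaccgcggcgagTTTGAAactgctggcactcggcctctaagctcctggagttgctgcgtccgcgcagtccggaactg

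Interferon response and immediate early genes were read because pIpC induces interferon and because sorting can stress cells. Of 23 interferon response genes, 5 were lower and 0 higher (leave-out counts 7, 3, 0, 0, 13 and 16). Ifi27l2a had 6.45 and 6.06 in BM-SSCs and 10.21 and 10.48 in CD45+ cells (difference -4.09, SE 0.51, adjusted p = 0.00404, and 0.0209 on array 1 alone), and Usp18, a negative regulator of interferon signalling, had 6.26 and 4.79 in BM-SSCs and 8.05 and 8.17 in CD45+ cells (difference -2.58, SE 0.49, adjusted p = 0.0204, and 0.0323 on array 1 alone). Of 23 immediate early and stress genes 2 were higher, Ccn1 and Ccn2, which are also matrix proteins (leave-out counts 0, 0, 0, 0, 7 and 20). The list's median difference was 1.91 on array 1 and -0.15 on array 2. Ccn1 had 12.99 and 11.12 in BM-SSCs and 3.53 and 4.25 in CD45+ cells (difference 8.16, SE 1.80, adjusted p = 0.0343, and 0.0787 on array 1 alone). The classical members read high in both populations: Fos had 13.90 and 12.87 in BM-SSCs and 13.10 and 13.10 in CD45+ cells (adjusted p = 0.878, and 1 on array 1 alone), and Egr1 had 14.11 and 12.82 in BM-SSCs and 10.65 and 10.61 in CD45+ cells (adjusted p = 0.29, and 0.478 on array 1 alone).

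Of other cells that could enter the sort, 0 of 18 erythroid, 0 of 13 megakaryocyte and 0 of 19 skeletal muscle genes passed. Without the P-SSC arrays 2 erythroid genes were higher, 2 megakaryocyte genes lower and 1 muscle gene lower. Other leave-out counts of these lists are not given. Means were higher in BM-SSCs for 16 of 18 erythroid, 8 of 13 megakaryocyte and 16 of 19 muscle genes. The median differences were 0.80 for erythroid, 0.52 for megakaryocyte and 0.77 for muscle genes. Muscle genes read higher on BM-SSC array 2, with a median difference of 1.25, against 0.16 on array 1. Alas2, the first enzyme of heme synthesis in red cells, had 6.15 and 5.57 in BM-SSCs and 4.17 and 4.07 in CD45+ cells. Genes that every cell uses were read as a check: of 13 ribosomal protein genes 0 passed, with a median difference of -0.96 and leave-out counts of lower members of 0, 0, 0, 0, 5 and 9. Of 10 housekeeping genes 1 passed as lower (leave-out counts 2, 1, 0, 0, 4 and 7), Tbp, the TATA-binding protein, with 5.05 and 3.87 in BM-SSCs and 6.71 and 6.65 in CD45+ cells (adjusted p = 0.0214, and 0.0396 on array 1 alone). The housekeeping genes had a median difference of -0.70 on array 1 and -2.50 on array 2.

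Genes of blood stem and progenitor cells were divided, also without the P-SSC arrays, where 3 were higher and 4 lower. Of 13 measured, 4 were lower (leave-out counts 3, 1, 0, 0, 4 and 4), among them Cd27, a TNF receptor of progenitors and lymphocytes, with 2.51 and 2.66 in BM-SSCs and 5.19 and 5.32 in CD45+ cells (adjusted p = 0.018, and 0.0538 on array 1 alone). Mecom, a zinc finger factor that blood stem cells need, was higher, with 7.73 and 6.23 in BM-SSCs and 3.17 and 3.21 in CD45+ cells (difference 3.79, SE 0.69, adjusted p = 0.0174, and 0.0214 on array 1 alone). Procr, a receptor used to sort blood stem cells that other cells carry too, had 8.27 and 6.41 in BM-SSCs and 3.26 and 3.34 in CD45+ cells without overlap, and did not pass (adjusted p = 0.121, and 0.177 on array 1 alone).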

How the data were processed

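RNA of sorted cells was hybridised to 1-colour Affymetrix mouse arrays, 1 per sample. The deposited values are log2 signals per probe set, which the authors made from scanner files by RMA (background correction, quantile normalization and median polish) in Partek GS, with versions not given in the sources used here. The interquartile ranges nevertheless differ between arrays (1.98 to 3.56 log2 units over the 4 compared), and no step was added to the values. Sequencing depth has no counterpart on arrays, and the number of arrays limits the precision.

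The 45101 probe sets held 64 control probe sets, which were left out. Of the other 45037, 34945 had 1 gene symbol in the platform annotation, 932 several and 9160 none, and 34754 matched a RefSeq symbol. A gene was represented by the probe set, of those with 1 symbol, whose mean over all arrays was highest. limma 3.58.1 (R 4.3.3) fitted 1 mean per population to all 11 arrays, and p-values were adjusted over all probe sets by Benjamini-Hochberg, with 5 residual and 2.65 prior degrees of freedom. In the fit without BM-SSC array 2, the lone array was assumed to vary like the other groups. The fit was tested on simulated data with 200 changed probe sets. Their spread was taken from the CD45+, Osx+ and CD51+ BMSC arrays and was the same in every population. The simulation therefore cannot show how the fit behaves with the wider spread of the BM-SSC and P-SSC arrays. Of 727 genes in 34 lists 667 were measured. Genes named are those of the sort, 4 that the study singled out (Kdr, Flt1, Lepr, Grem1), the 12 per direction with the widest gap between populations and up to 6 per list by the same gap, beside those said to be chosen after their values were seen. The comparison, its lists and its tests were chosen with earlier results of these data known. Alternatives varied the arrays in the fit, normalization, filter, probe set choice and variance model. Promoter windows came from RefSeq (GRCm38.p6).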

Additional observations from a re-analysis of the deposited data

Results flagged for a closer look

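Hybridization spike-ins, bacterial and phage transcripts added to each labelled sample, lie outside the comparison of mouse genes and read higher on BM-SSC array 2 than on both CD45+ arrays. The bioB spike-in had 12.3 log2 units on BM-SSC array 2, where array 1 had 6.68, against 9.22 and 8.74 on the CD45+ arrays. For bioC the values were 13.3 and 11.5 on BM-SSC arrays 2 and 1 and 10.6 and 10.1 on the CD45+ arrays, for bioD 14.1 and 13.2 on BM-SSC arrays 2 and 1 and 12.3 and 11.8 on the CD45+ arrays, and for cre 14.7 and 14.4 on BM-SSC arrays 2 and 1 and 14.0 and 13.7 on the CD45+ arrays. The gap between the BM-SSC arrays was thus widest for bioB and narrowest for cre. Some other control probe sets read above the CD45+ arrays on both BM-SSC arrays. AFFX-PheX-3_at had 11.04 and 12.59 on BM-SSC arrays 1 and 2, against 7.13 and 7.23 on the CD45+ arrays. AFFX-LysX-3_at had 11.22 and 12.57 on BM-SSC arrays 1 and 2, against 7.36 and 7.55. Array 1 was therefore not free of such differences. What part the labelling or hybridization of either BM-SSC array had in the gene values was not tested.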

How the results depend on the processing

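The count of 3801 passing probe sets moved with the arrays in the fit. It was 786 with the 4 compared arrays alone, 8683 without the P-SSC arrays and 16832 without array 2 of both BM-SSCs and P-SSCs, and between 464 and 8921 when 1 of the compared arrays was left out. Quantile normalization gave 2431, 1 probe set per gene 2110 of 18193, a minimum difference of 2-fold 908, and an unadjusted p 11003. Centring on the median gave 4272 with 15.0% higher, against 25.8% of the 3801. The other settings, with 2932 without dim probe sets, 3599 with a variance trend, 3073 with array weights and 3806 with controls kept, stayed within 1.5 times of it. A similar count can hold other calls: of the 3073 with array weights, 2096 were among the 3801. Of 203 named genes, 103 and 108 lost their call without CD45+ array 1 and CD45+ array 2. The 203 include genes that had not passed with all arrays and so had no call to lose. No gene that passed changed direction under the alternatives run, but 11 that did not pass did. When 1 of the compared arrays was left out, the difference lay between -0.0907 and 0.71 for Axin2, between -0.22 and 0.0928 for Cd163, between -1.11 and 1.38 for Ebf1, between -0.0296 and 0.34 for Fgf23, between -0.0978 and 1.82 for Fn1, between -0.23 and 0.80 for Fos, between -0.41 and 0.26 for Igll1, between -1.38 and 1.73 for Itgav, between -1.80 and 0.77 for Runx1, between -3.49 and 0.21 for Tgfbr1 and between -3.27 and 0.82 for Tgfbr2. Without array 2 of both stem cell populations it was -0.0296 for Fgf23, 0.77 for Runx1, 0.21 for Tgfbr1 and 0.82 for Tgfbr2, of which Tgfbr2 then passed. Quantile normalization gave -0.24 for Fgf23, 0.19 for Igll1 and 0.30 for Runx1, and centring on the median gave -0.0767 for Itgav, -0.12 for Ebf1 and -0.0965 for Fgf23. The cause was not tested.

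The groups share array numbers, and deviations of same-numbered arrays correlated at -0.121 over probe sets, in 2 pairs. With so few pairs this cannot show whether same-numbered samples shared a source or a processing day, and the labels do not say. With the number as a replicate block 3577 probe sets passed. With the numbers crossed, a setting added after the data were seen, 3776 passed. The counts of gene lists without the P-SSC arrays were also added after the data were seen.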

Other observations

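Fabp7, the glial fatty acid binding protein, was read on the other arrays of the series as well. It had 8.26 and 10.40 log2 units on the BM-SSC arrays, 8.45 on the Nes+ BMSC array, 5.46 and 5.88 on the Osx+ arrays, 4.65 and 3.54 on the P-SSC arrays, 3.48 and 3.63 on the CD51+ BMSC arrays and 3.18 and 3.18 on the CD45+ arrays. The arrays of cells sorted with Nestin-GFP were thus the 3 highest of 11, with no test made over this order. S100b, Sox10 and Mbp of the same list did not share it. S100b was highest on the Osx+ arrays, at 8.63 and 8.90, and Sox10 on P-SSC array 2, at 7.46. Mbp had 10.51 on CD51+ BMSC array 1, above its 8.52 on BM-SSC array 1. Fabp7 was chosen after its values were seen.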
